A study of Mus musculus with 6 samples.

Results

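The Wnt genes described here are 65 of the 17830 genes in the deposited mouse count table: ligands and the proteins that secrete them, receptors, R-spondins and their LGR receptors, antagonists, intracellular inhibitors and genes known as feedback targets of the pathway. They were chosen by name, from a list of gene families and roles, and not by their values. 47 of the 65 had enough counts to be tested and 18 did not. Of the 65, 40 form the agonist side (ligands, secretion, receptors, R-spondins and LGRs), 23 the antagonist side (secreted antagonists, antagonist receptors, receptor ubiquitin ligases and cytoplasmic inhibitors), and 2 are transcription factors; 10 genes across these roles are feedback targets.

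Wnt ligands are lipid-modified secreted proteins that bind a Frizzled receptor together with LRP5 or LRP6 and thereby keep beta-catenin from being degraded, so that it can act with TCF/LEF factors on target genes. R-spondins acting through LGR receptors raise receptor levels at the membrane, secreted antagonists bind ligand or LRP, and several targets, among them Axin2, Nkd1, Notum, Znrf3 and Rnf43, limit the pathway in turn. In bone, Wnt signalling is known for promoting osteoblast formation, and the osteocyte product sclerostin, encoded by Sost, is a known inhibitor of it. A separate branch, with Wnt5a and the receptors Ror1, Ror2 and Ryk, does not work through beta-catenin.

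RNA was sequenced from 6 libraries of tdTomato-positive cells sorted from cultures grown out of calvarial bone fragments, 3 per genotype. Ctrl mice were mOCN-Cre; Ai9, and APPswe mice were TgAPPswe with mOCN-Cre; Ai9, so the Cre driver, an osteocalcin allele, and the Ai9 tdTomato reporter were present in all 6. TgAPPswe adds a human APP carrying the Swedish mutation that Cre switches on, and the mice were C57BL/6J and, by the study's text, male and 6 months old. Counts per library ranged from 17263757 to 18398392, so that 3 counts, taken here as the detection floor, correspond to 0.167 to 0.173 CPM, a count scaled to library size. The transgene is human, and the deposited table lists mouse App, whose CPM was 983, 1287 and 1088 in Ctrl 1, 2 and 3 and 1015, 1048 and 1048 in APPswe 1, 2 and 3 (log2 fold change -0.11, adjusted p = 0.507; without Ctrl 2, 0.0051, adjusted p = 0.953). The expression of the transgene could not be read from this table. The labels do not say that the libraries came from separate animals or cultures, so the p-values measure the spread between these samples, part of which may be technical.

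Ctrl 2 stands apart from the other 5 libraries. Its Y-linked counts (Ddx3y, Eif2s3y, Kdm5d and Uty summed) were 2, against 3406 in Ctrl 1, 3184 in Ctrl 3 and 2615, 2299 and 2257 in APPswe 1, 2 and 3. The study names male mice for its RNA sequencing and used female mice of both genotypes in other experiments. Bglap, the osteocalcin gene that carries the Cre, had 1 count in Ctrl 2 against 159 and 204 in Ctrl 1 and 3 and 115, 128 and 159 in APPswe. Ibsp, the bone sialoprotein gene, had 3 counts in Ctrl 2 against 1468, 1371, 985, 943 and 940, and Alpl, the alkaline phosphatase gene, 35 against 752, 774, 1332, 1295 and 1357. So the defining osteoblast markers Bglap and Ibsp were at or near the floor in that library, but other osteoblast genes were not. Col1a1 had 101492 counts there, Col1a2 101971, Sparc 52084 and Runx2 497, each above Ctrl 1 and 3. Bglap2, Sp7, Pth1r, Dlx5 and Spp1 were below both. Between pairs of libraries, the mean squared difference per gene in units of sampling error was 6.17 for Ctrl 1 and Ctrl 3, and 76.2 and 80.8 when either was set beside Ctrl 2, while pairs across groups gave 85.6 to 110. APPswe 2 and 3 lay closer together (1.59) than either did to APPswe 1 (7.38 and 7.90). Tests between the groups are therefore mostly given with all 6 libraries and again without Ctrl 2, and the cause of the difference was not tested.

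For many Wnt genes Ctrl 2 was the lowest library. It lay below all 5 other libraries for 33 of the 47 Wnt genes tested (70.2%), compared with 28.8% of all 13484 genes tested, and above all 5 for 2 (4.26%), compared with 28.0%. On the agonist side it was lowest for 22 of 29 genes, and on the antagonist side for 10 of 17. Sfrp4, a secreted antagonist, had 1.12 CPM in Ctrl 2 and 32.8 and 30.0 in Ctrl 1 and 3, and Rspo2, an R-spondin, 13.6 against 98.8 and 94.9. Dkk2, a secreted LRP ligand, went the other way, with 33.0 against 13.1 and 13.8.

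**Figure D1:**
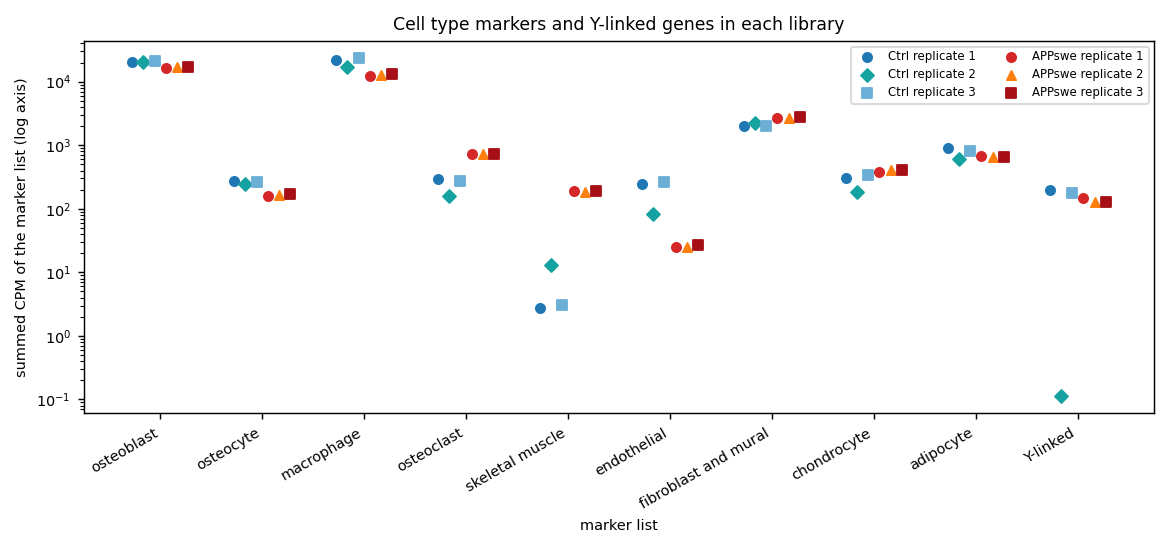
Summed CPM of each marker list (log axis) in each of the 6 libraries, by group and replicate. Y-linked genes were at 0.112 CPM in Ctrl 2 and at 127 to 197 in the other 5, and the skeletal muscle list was at 2.71 to 13.0 in Ctrl and 187 to 191 in APPswe.

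Of 12 osteoblast markers, all had counts in every library, with Spp1 the highest in FPKM; their summed CPM was 20399, 20496 and 21427 in Ctrl 1, 2 and 3 and 16373, 17158 and 17254 in APPswe 1, 2 and 3. Spp1 was at 9315, 6092 and 9106 CPM in Ctrl and 3691, 3472 and 3544 in APPswe, and the median CPM of the 12 was 32.7, 3.85 and 33.8 in Ctrl and 44.1, 43.5 and 43.7 in APPswe. Sp7, Pth1r, Alpl, Runx2, Sparc and Dlx5 were each higher in all 3 APPswe libraries than in all 3 Ctrl libraries. Spp1 was lower in all 3 than in all 3 Ctrl libraries, and Bglap, Bglap2 and Ibsp were lower in all 3 than in Ctrl 1 and 3, with Ctrl 2 below all. The 6 osteocyte markers summed to 274, 248 and 269 CPM in Ctrl and 160, 166 and 168 in APPswe, nearly all of it Pdpn. Dmp1 had 261, 2 and 254 counts in Ctrl and 12, 16 and 14 in APPswe, with Ctrl 2 below all. Phex had 18, 3 and 14 counts in Ctrl and 4, 6 and 10 in APPswe, again with Ctrl 2 below all. Sost, Mepe and Fgf23 had at most 3 counts in every library. They were at 0 in Ctrl 2, Mepe also in Ctrl 3 and in APPswe, Fgf23 in APPswe 1 and Sost in APPswe 3. Markers of other cell types were present as well, and some moved with genotype; the leading gene of a list is named by FPKM. The 13 macrophage markers, all with counts in every library and led by Lyz2, summed to 22309, 17300 and 23884 CPM in Ctrl and 12081, 12914 and 12998 in APPswe. Lyz2 alone was at 14794, 9772 and 16084 CPM in Ctrl and 7148, 7840 and 7879 in APPswe. Cd68, Adgre1, Itgam, C1qa, C1qb, Fcgr1 and Cd14 were likewise lower in every APPswe library than in every Ctrl library. Aif1 was higher in every APPswe library than in every Ctrl library, and Csf1r, Mrc1, Tyrobp and Ptprc overlapped. The 8 osteoclast markers, led by Ctsk, summed to 290, 158 and 274 CPM in Ctrl and 730, 731 and 719 in APPswe, with Calcr at 0 in Ctrl 2 and 3. The 12 skeletal muscle markers summed to 2.71, 13.0 and 3.10 CPM in Ctrl, where Acta1 was the most abundant and Ckm was at 0, and to 191, 187 and 191 in APPswe, led by Myl1. The largest muscle count in Ctrl was 72, for Acta1 in Ctrl 2, where Myh3 and Des had 35 each and Myl1 31, while Ckm had 7, 4 and 2 counts in APPswe. The 8 endothelial markers, led by Emcn in Ctrl 1 and 3, summed to 248, 82.3 and 265 CPM in Ctrl and 25.1, 25.1 and 26.6 in APPswe, with Tie1 at 0 in Ctrl 2.

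Fibroblast and mural markers (8 genes, led by Acta2) summed to 2014, 2218 and 1976 CPM in Ctrl and 2653, 2721 and 2749 in APPswe. Acta2 alone was at 659, 1524 and 659 CPM in Ctrl and 1591, 1646 and 1696 in APPswe. Pdgfra was also higher in every APPswe library than in every Ctrl library, Pdgfrb was lower, and Thy1 overlapped. Dcn, Lum, Rgs5 and Cspg4 were lower in every APPswe library than in Ctrl 1 and 3, with Ctrl 2 below all. Chondrocyte markers (6 genes, led by Comp except in Ctrl 2) summed to 303, 183 and 343 CPM in Ctrl and 379, 414 and 408 in APPswe, with Acan at 0 in Ctrl 2. Comp, Acan, Sox9 and Col9a1, the last with at most 12 counts, were higher in every APPswe library than in every Ctrl library. Col2a1 overlapped, and Matn1 was lower in every APPswe library than in Ctrl 1 and 3 but overlapped Ctrl 2. Adipocyte markers (6 genes, led by Lpl) summed to 920, 598 and 803 CPM in Ctrl and 687, 662 and 658 in APPswe, with Adipoq, Plin1 and Cfd at 0 in Ctrl 2. Transcripts of macrophage, osteoclast, muscle and endothelial markers were thus measured in libraries of sorted cells, and their part in the Wnt results was not tested.

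The comparison asks which Wnt genes differ between sorted tdTomato-positive cells of the 2 genotypes. With all 6 libraries, 8 of the 47 Wnt genes tested were called higher in APPswe, a call needing an adjusted p no greater than 0.05 and a log2 fold change at or beyond 1 in either direction: Sfrp1, Ror1, Lgr4, Dact1, Nkd1, Notum, Wnt4 and Fzd4. Over all genes tested, 3.74% (504 of 13484) were called higher. None was called lower by edgeR, beside 3.60% of all genes tested (486); 4 Wnt genes were lower at an unadjusted p of at most 0.05, and DESeq2 called 0. By adjusted p alone, 14 rose (29.8%, beside 10.5% of all genes tested) and 0 fell (beside 12.0%), while DESeq2 gave 2 that fell, Fzd7 and Lrp5. The 3 Ctrl and 3 APPswe values did not overlap for 23 genes that were higher and 4 that were lower, 27 of 47, beside 45.0% of all genes tested. The median log2 fold change of the 47 was 0.35, and that of all genes tested -0.0033. Because these are bulk libraries, more cells expressing a gene and more RNA per cell cannot be told apart.

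Without Ctrl 2, the same 8 genes were called higher together with Sfrp2, which is 9 of 47 (19.1%) beside 4.87% of all genes tested, and 3 were called lower, Rspo1, Wif1 and Wnt16 (6.38%, beside 6.58%). By adjusted p alone, 20 rose (42.6%, beside 23.3%) and 10 fell (21.3%, beside 25.0%). The 2 Ctrl and 3 APPswe values did not overlap for 23 genes that were higher, as before, and for 13 that were lower, in place of 4; that is 36 of 47 (76.6%), beside 66.2% of all genes tested. The median log2 fold change was 0.21, against 0.0145 for all genes tested. The shares of Wnt genes that were lower without Ctrl 2 were thus near those of all genes. The number called was also tied to the APPswe libraries: without APPswe 1, APPswe 2 or APPswe 3 it was 4, always Dact1, Fzd4, Lgr4 and Ror1. Calls fell over all genes tested as well: 317 of 13742, 291 of 13731 and 281 of 13742 were called higher in these fits, in place of 504 of 13484.

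**Figure D2:**
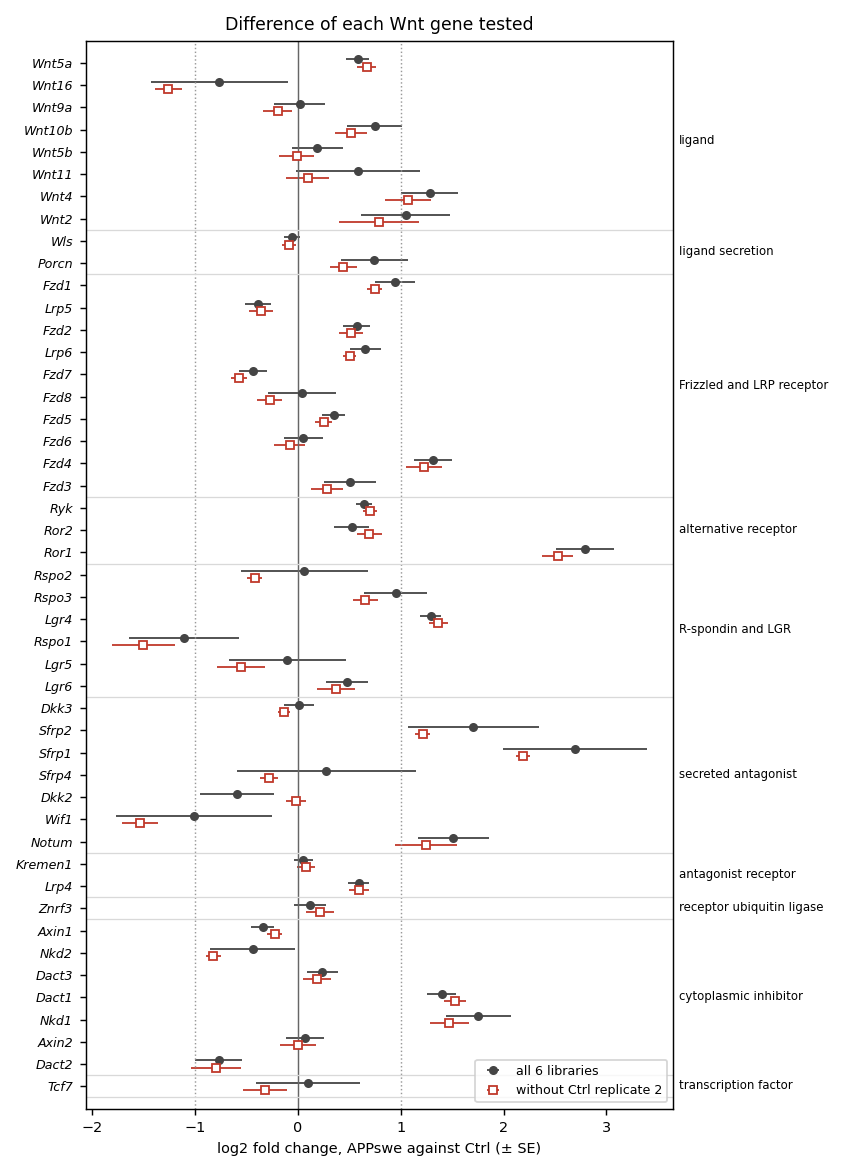
Log2 fold change (APPswe against Ctrl, ± SE) of each of the 47 Wnt genes tested, with all 6 libraries and without Ctrl 2. 36 of the 47 are positive with all 6 libraries and 28 without Ctrl 2; Ror1 (2.79) and Sfrp1 (2.70) lie farthest to the right with all 6.

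Wnt ligands were few and low. Of 16 ligand genes, 8 were tested, and by mean FPKM, a level corrected for gene length and used here between genes, the highest were Wnt5a at 5.16, Wnt16 at 4.05 and Wnt9a at 2.07. Wnt5a, which acts largely outside the beta-catenin branch, was at 21.4, 24.1 and 19.3 CPM in Ctrl and 34.0, 31.5 and 31.4 in APPswe. All 3 APPswe values lay above all 3 Ctrl values, and Wnt5a rose (log2 fold change 0.58 ± 0.11 SE, adjusted p = 0.0125; without Ctrl 2, 0.67, adjusted p = 0.000135). It lost the threshold without each APPswe library in turn, with an adjusted p of up to 0.0603.

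Wnt4 was at 1.33, 0.787 and 1.35 CPM in Ctrl and 2.75, 2.45 and 3.26 in APPswe, in every case above the floor and with no overlap. It was called higher (log2 fold change 1.28 ± 0.28 SE, adjusted p = 0.0205; without Ctrl 2, 1.07, adjusted p = 0.00273), but not without any of the 3 APPswe libraries in turn (adjusted p up to 0.103). Wnt16, which is known from bone, was at 9.93 and 11.5 CPM in Ctrl 1 and 3, 1.29 in Ctrl 2 and 4.32, 4.51 and 4.55 in APPswe. Its difference therefore depended on Ctrl 2: -0.76 (adjusted p = 0.444) with it and -1.26 (adjusted p = 1.78e-05) without. Wnt10b, a ligand tied to osteoblast formation, was at 4.39, 2.30 and 4.01 CPM in Ctrl and 5.16, 6.35 and 6.46 in APPswe (log2 fold change 0.75, adjusted p = 0.089; without Ctrl 2, 0.52, adjusted p = 0.021). Of the 2 genes for ligand secretion, Porcn, the enzyme that adds the lipid to Wnt proteins, was at 9.36, 4.16 and 10.0 CPM in Ctrl and 11.05, 14.1 and 14.3 in APPswe, without overlap. Porcn passed on p without Ctrl 2 and not with all 6 libraries (log2 fold change 0.74, adjusted p = 0.145 with it; 0.44, adjusted p = 0.0195 without) and was not called. Wls, which carries Wnt proteins to the membrane, was the most abundant agonist-side gene, with a mean of 97.7 FPKM; its CPM was 332, 300 and 306 in Ctrl and 314, 293 and 293 in APPswe (-0.06, adjusted p = 0.612; without Ctrl 2, -0.086, adjusted p = 0.302).

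Among Frizzled and LRP receptors, differences went in both directions. Of 12 genes, 10 were tested, 1 was called higher (10.0%, beside 3.74% of all genes tested) and 4 rose by adjusted p (40.0%, beside 10.5%), with a median log2 fold change of 0.43 (0.27 without Ctrl 2). Fzd4, a Frizzled that also binds norrin, was at 2.02, 1.63 and 1.98 CPM in Ctrl and 4.88, 4.85 and 4.33 in APPswe, with no overlap. It was called in every leave-out (log2 fold change 1.32 ± 0.18 SE, adjusted p = 0.00464; without Ctrl 2, 1.23, adjusted p = 0.000209). Fzd1, the most abundant receptor of this role by FPKM (17.4), was at 53.5, 34.0 and 58.1 CPM in Ctrl and 90.3, 96.3 and 93.7 in APPswe, and rose by less than the fold threshold (log2 fold change 0.94 ± 0.19 SE, adjusted p = 0.0164; without Ctrl 2, 0.75). Without each APPswe library in turn, Fzd1 missed the threshold on p (adjusted p up to 0.0715), and without Ctrl 1 or Ctrl 3 it reached the fold threshold as well (1.02 and 1.09).

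Fzd2 (log2 fold change 0.57, adjusted p = 0.0242; without Ctrl 2, 0.52, adjusted p = 0.00433) and Lrp6, a co-receptor (0.66, adjusted p = 0.0241; CPM 81.9, 58.2 and 87.3 in Ctrl and 121, 121 and 116 in APPswe; without Ctrl 2, 0.50, adjusted p = 0.000118), rose as well. Fzd5 was at 27.03, 21.3 and 26.4 CPM in Ctrl and 31.4, 32.4 and 31.1 in APPswe, without overlap, and passed on p without Ctrl 2 and not with all 6 libraries (0.35, adjusted p = 0.0687 with it; 0.25, adjusted p = 0.0229 without); without TMM the Fzd5 log2 fold change was 0.42 (adjusted p = 0.0381). Fzd2 missed the threshold without Ctrl 1, APPswe 2 or APPswe 3, and Lrp6 without Ctrl 1 or any APPswe library. Lrp5, the co-receptor whose mutations change bone mass in people, pointed the other way, at 57.5, 66.2 and 69.8 CPM in Ctrl and 41.8, 51.6 and 54.8 in APPswe (log2 fold change -0.38, adjusted p = 0.073; without Ctrl 2, -0.36, adjusted p = 0.0259). Fzd7 likewise was at 53.5, 39.2 and 53.9 CPM in Ctrl and 33.8, 37.5 and 36.7 in APPswe (-0.44, adjusted p = 0.0621; without Ctrl 2, -0.57, adjusted p = 0.000125). By adjusted p, 0 of the 10 receptors fell with all 6 libraries. Without Ctrl 2, 5 of 10 rose (50.0%, beside 23.3% of all genes tested). The 2 that fell without it, Lrp5 and Fzd7, were a smaller share than the 25.0% of all genes tested.

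The alternative receptors, which carry Wnt5a-type signals, were 3 genes, all tested, and all 3 had positive log2 fold changes in both fits (median 0.64; 0.70 without Ctrl 2). Ror1, a receptor of the tyrosine kinase family, was at 2.25, 1.18 and 2.60 CPM in Ctrl and 15.1, 12.6 and 14.2 in APPswe. The lowest APPswe value was well above the highest Ctrl value, and Ror1 had the largest log2 fold change of the 47 with all 6 libraries (2.79 ± 0.28 SE, 6.94-fold, adjusted p = 0.00159; without Ctrl 2, 2.53 ± 0.15 SE, adjusted p = 3.58e-07). It was also the 1 Wnt gene called by a test against a 1-log2 change in place of 0. Its mean level was 0.357 FPKM in Ctrl and 2.60 in APPswe, low beside Ryk.

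Ryk, which lacks an active kinase, was the most abundant of the 3, at 28.8 ± 1.94 FPKM in Ctrl and 47.2 ± 2.44 in APPswe (SD, n = 3). Its CPM was 86.3, 95.0 and 84.7 in Ctrl and 140, 144 and 131 in APPswe, and it rose with no overlap (log2 fold change 0.64 ± 0.08 SE, adjusted p = 0.00306; without Ctrl 2, 0.70, adjusted p = 1.28e-05). Ryk kept an adjusted p of at most 0.05 in all 6 leave-outs. Ror2 missed the threshold with all 6 libraries (0.52, adjusted p = 0.0695) and passed without Ctrl 2 (0.70, adjusted p = 0.000809).

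R-spondins and LGRs gave mixed values. Lgr4, the most abundant of the LGRs by FPKM, was at 17.3, 20.2 and 17.8 CPM in Ctrl and 49.0, 42.2 and 44.1 in APPswe, and was called in every leave-out (log2 fold change 1.29 ± 0.10 SE, adjusted p = 0.000865; without Ctrl 2, 1.37, adjusted p = 9.07e-07). Ctrl 2 did not stand apart for this gene. Rspo2, the most abundant R-spondin by FPKM (24.6), was at 98.8, 13.6 and 94.9 CPM in Ctrl and 76.8, 71.5 and 68.2 in APPswe. Its log2 fold change was 0.06 with Ctrl 2 (adjusted p = 0.953) and -0.42 without (adjusted p = 0.000731), so its sign turned on that library. Rspo3 was at 21.3, 8.49 and 16.99 CPM in Ctrl and 33.1, 27.1 and 30.1 in APPswe (0.95, adjusted p = 0.0694; without Ctrl 2, 0.66, adjusted p = 0.00114); without Ctrl 1 the Rspo3 log2 fold change was 1.24 and Rspo3 was called higher (adjusted p = 0.0481). Rspo1, at 1.96, 0.450 and 1.35 CPM in Ctrl and 0.561, 0.501 and 0.674 in APPswe, was called lower without Ctrl 2 and not with all 6 libraries (-1.11, adjusted p = 0.181 with it; -1.50, adjusted p = 0.00207 without). Lgr5, a receptor gene and target, was at 2.48, 0.562 and 3.33 CPM in Ctrl and 1.51, 2.17 and 2.25 in APPswe, and was not called (-0.10, adjusted p = 0.915; without Ctrl 2, -0.55, adjusted p = 0.0720).

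Of 11 secreted antagonists, 7 were tested, 2 were called higher with all 6 libraries (28.6%, beside 3.74% of all genes tested), and 3 higher (42.9%, beside 4.87%) and 1 lower (14.3%, beside 6.58%) without Ctrl 2. Sfrp1, a secreted Frizzled-related protein that binds Wnt ligands, was at 53.2 and 51.0 CPM in Ctrl 1 and 3, 5.68 in Ctrl 2 and 241, 239 and 231 in APPswe. Every APPswe value was above every Ctrl value with or without Ctrl 2, and the log2 fold change was 2.70 ± 0.70 SE (adjusted p = 0.0356) with all 6 and 2.19 ± 0.07 SE (adjusted p = 4.16e-09) without Ctrl 2. The call with all 6 libraries was lost without Ctrl 1, Ctrl 3, APPswe 1, APPswe 2 or APPswe 3 (adjusted p up to 0.107). In length-normalised terms Sfrp1 stood at 8.66 ± 6.34 FPKM in Ctrl and 59.1 ± 1.80 in APPswe (SD, n = 3).

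Sfrp2, its relative, showed the same layout at 42.4, 5.45 and 43.3 CPM in Ctrl and 96.6, 98.9 and 102 in APPswe. It missed the threshold with all 6 libraries (log2 fold change 1.71 ± 0.64 SE, adjusted p = 0.101) and was called higher without Ctrl 2 (1.21 ± 0.07 SE, adjusted p = 2.34e-07). Sfrp4 was at 27.5, 24.9 and 24.9 CPM in APPswe, between Ctrl 2 and the other Ctrl libraries, and its log2 fold change was 0.28 (adjusted p = 0.847) with Ctrl 2 and -0.28 (adjusted p = 0.0218) without. Wif1, which binds Wnt proteins, was at 6.87, 0.618 and 8.13 CPM in Ctrl and 2.52, 2.12 and 3.09 in APPswe, called lower without Ctrl 2 and not with all 6 libraries (-1.01, adjusted p = 0.373 with it; -1.54 ± 0.18 SE, adjusted p = 4.41e-05 without). Notum, an enzyme that removes the lipid from Wnt proteins and is a feedback target, was low at 0.462, 0.281 and 0.677 CPM in Ctrl and 1.35, 1.45 and 1.29 in APPswe. It was called higher (1.51 ± 0.35 SE, adjusted p = 0.0246; without Ctrl 2, 1.25, adjusted p = 0.00626), and the call was lost without Ctrl 1 or any APPswe library (adjusted p up to 0.113).

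Dkk3, a Dickkopf-family protein, had the highest FPKM (92.0) of the genes counted here on the antagonist side. Its CPM was 313, 219 and 317 in Ctrl and 284, 282 and 291 in APPswe, and it was not called (log2 fold change 0.01, adjusted p = 0.957; without Ctrl 2, -0.14, adjusted p = 0.0693). Among the antagonist receptors, Lrp4, a receptor that binds sclerostin, was at 14.0, 14.8 and 15.4 CPM in Ctrl and 23.7, 21.3 and 21.7 in APPswe. Lrp4 rose by adjusted p (0.59, adjusted p = 0.00884; without Ctrl 2, 0.60, adjusted p = 0.000529; highest in a leave-out 0.0498) without reaching the fold threshold. Kremen1, a Dickkopf receptor, was at 63.6, 69.3 and 69.2 CPM in Ctrl and 63.5, 74.8 and 71.6 in APPswe (0.054, adjusted p = 0.692; without Ctrl 2, 0.078, adjusted p = 0.476).

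Of the 7 cytoplasmic inhibitors, all tested, 2 were called higher, Dact1 and Nkd1 (28.6%, beside 3.74% of all genes tested); without Ctrl 2, the same 2 were called higher (beside 4.87%) and Nkd2, Axin1 and Dact2 fell by adjusted p (42.9%, beside 25.0%). Dact1, a Dishevelled-binding protein, was at 5.95, 7.42 and 5.70 CPM in Ctrl and 16.3, 17.3 and 16.7 in APPswe, with Ctrl 2 beside the other Ctrl libraries. It was called in every leave-out (log2 fold change 1.40 ± 0.14 SE, adjusted p = 0.00157; without Ctrl 2, 1.53, adjusted p = 1.34e-06). Nkd1, a Dishevelled inhibitor and feedback target, was at 1.73, 0.843 and 1.92 CPM in Ctrl and 5.66, 4.85 and 4.72 in APPswe, and was called (1.76 ± 0.31 SE, adjusted p = 0.0104; without Ctrl 2, 1.47, adjusted p = 8.51e-05). Nkd1 was lost without each APPswe library in turn (adjusted p up to 0.0537). Axin1, a scaffold of the beta-catenin destruction complex, was at 50.5, 65.1 and 54.1 CPM in Ctrl and 42.0, 46.8 and 44.8 in APPswe (-0.34, adjusted p = 0.0708; without Ctrl 2, -0.23, adjusted p = 0.0322). Dact2, of the Dact1 family, gave -0.77 (adjusted p = 0.0535) and, without Ctrl 2, -0.80 (adjusted p = 0.0208).

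**Figure D3:**
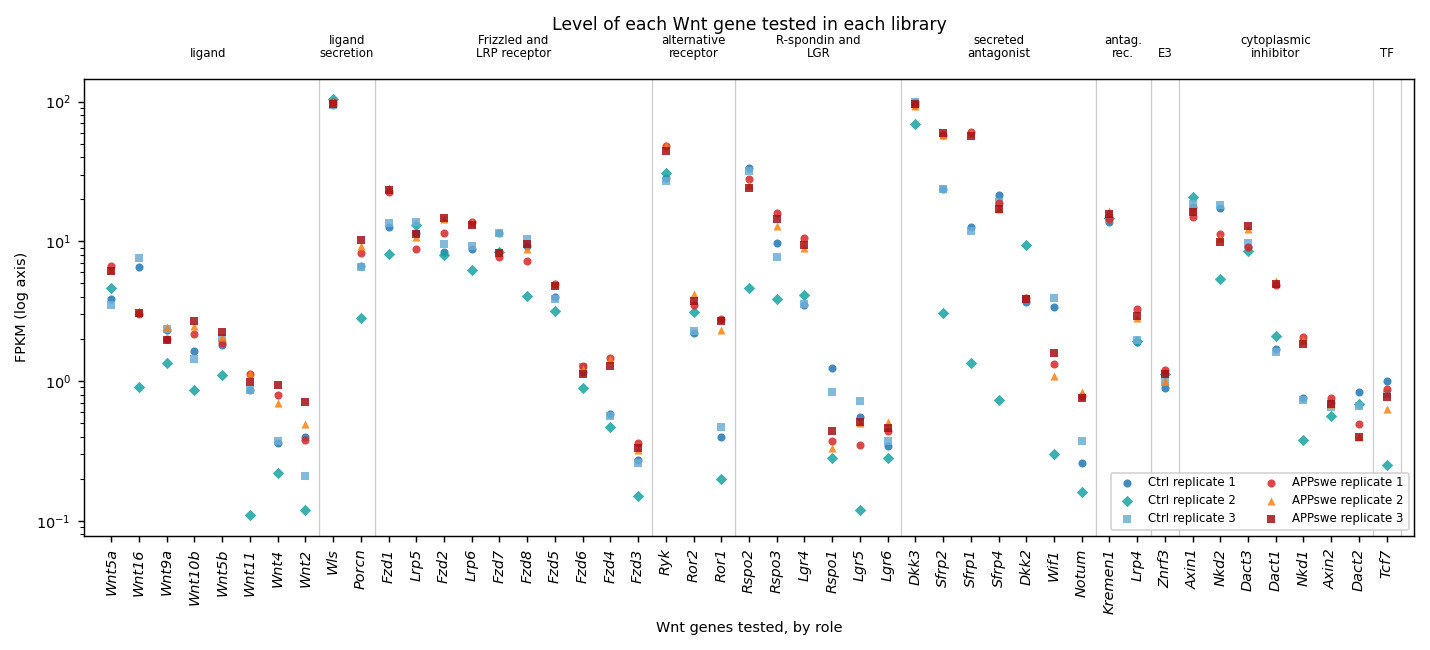
FPKM (log axis) of each Wnt gene tested in each of the 6 libraries, grouped by role, with Ctrl and APPswe replicates as separate points. Wls (mean 97.7) and Dkk3 (92.0) are the highest of their sides, Ctrl 2 is the lowest point for many genes, and Ror1 and Sfrp1 show the widest gap between groups.

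The called genes lie on several chromosomes (GRCm38.p6): Sfrp1 on chromosome 8 at 23411383 to 23449632, Nkd1 on 8 at 88521342 to 88594887, Ror1 on 4 at 100095791 to 100444806, Wnt4 on 4 at 137277635 to 137299501, Lgr4 on 2 at 109917647 to 110014257, Dact1 on 12 at 71309884 to 71320107, Notum on 11 at 120653788 to 120661193 and Fzd4 on 7 at 89404366 to 89410110. RefSeq promoter windows were found for 43 of the 65 Wnt genes and for 6 of the 8 called. The 250 bases before the start were searched on both strands for the TCF/LEF letters ATCAAAG or their variants TTCAAAG, with AACAAAG and also TACAAAG, and for the GC box GGGCGG and the CCAAT box CCAAT. A gene counts as having a match if any of its windows has one. No TCF/LEF match was found for any of the 6 called genes; 5 of 43 Wnt genes had one (11.6%: Dkk1, Fzd7, Lef1, Wnt11 and Wnt5b), beside 16.8% of 27025 genes. Feedback targets had a match in 2 of 7. GC boxes were found for 4 of the 6 called genes and for 31 of the 43 Wnt genes, beside 35.4% of all genes with a window, and CCAAT boxes for 3 of 6 and 14 of 43, beside 37.5%. For 5 called genes the RefSeq window begins 250 bases before the gene's start. The 150 bases before that start are shown to let the eye compare genes called higher together. Capitals mark GC boxes and CCAAT boxes on either strand (CCGCCC and ATTGG on the opposite one). Overlapping matches run together, and a match is a description only. All are on the plus strand of GRCm38.p6: Ror1 at chr4:100095641-100095790, Lgr4 at chr2:109917497-109917646, Dact1 at chr12:71309734-71309883, Fzd4 at chr7:89404216-89404365 and Wnt4 at chr4:137277485-137277634.
Ror1: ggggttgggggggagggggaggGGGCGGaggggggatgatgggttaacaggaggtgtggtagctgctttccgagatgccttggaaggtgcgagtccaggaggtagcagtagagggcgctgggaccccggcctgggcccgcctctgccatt
Lgr4: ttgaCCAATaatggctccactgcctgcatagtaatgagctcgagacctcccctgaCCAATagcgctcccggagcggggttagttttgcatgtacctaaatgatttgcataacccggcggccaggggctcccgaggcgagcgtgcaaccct
Dact1: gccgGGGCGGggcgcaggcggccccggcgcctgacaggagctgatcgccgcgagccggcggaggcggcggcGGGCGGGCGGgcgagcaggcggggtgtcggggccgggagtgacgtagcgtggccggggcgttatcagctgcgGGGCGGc
Fzd4: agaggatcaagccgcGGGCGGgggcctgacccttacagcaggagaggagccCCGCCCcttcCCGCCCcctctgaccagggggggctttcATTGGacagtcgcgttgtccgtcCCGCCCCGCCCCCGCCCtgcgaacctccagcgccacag
Wnt4: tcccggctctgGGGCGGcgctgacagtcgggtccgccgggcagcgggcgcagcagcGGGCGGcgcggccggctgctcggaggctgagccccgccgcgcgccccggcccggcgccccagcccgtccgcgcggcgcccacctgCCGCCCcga
These 5 stretches differ in their marks: Fzd4 has 6 GC boxes and a CCAAT box, Dact1 4 GC boxes, Wnt4 3, Ror1 1, and Lgr4 has 2 CCAAT boxes and no GC box.

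Agonists and antagonists can be set side by side by count, by median and by summed level. The agonist side as counted here includes Wnt5a, Ror1, Ror2 and Ryk, of the branch that does not work through beta-catenin. On the agonist side, 4 of 29 genes tested were called higher (Wnt4, Fzd4, Ror1 and Lgr4; 13.8%, beside 3.74% of all genes tested) and 9 rose by adjusted p (31.0%, beside 10.5%), with a median log2 fold change of 0.52. On the antagonist side, 4 of 17 were called higher (Sfrp1, Notum, Dact1 and Nkd1; 23.5%, beside 3.74%) and 5 rose (29.4%, beside 10.5%), with a median of 0.12. Without Ctrl 2, the agonist side had 4 called higher (13.8%), 2 called lower (6.90%), 14 that rose (48.3%) and 5 that fell (17.2%), and a median of 0.37. The antagonist side had 5 (29.4%), 1 (5.88%), 6 (35.3%) and 5 (29.4%), and a median of 0.08. Over all genes tested the same shares were 4.87%, 6.58%, 23.3% and 25.0%, so the called-lower shares of both sides were near that of all genes. Genes of both sides were therefore called higher, and the difference between the sides was not tested.

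Summed levels per length show where the transcripts lie. The agonist side summed to 268, 217 and 269 FPKM in Ctrl 1, 2 and 3 and to 317, 320 and 313 in APPswe 1, 2 and 3, with Wls at 97.3 ± 5.56 FPKM in Ctrl and 98.1 ± 2.16 in APPswe (SD, n = 3). The antagonist side summed to 229, 140 and 230 FPKM in Ctrl and 301, 302 and 302 in APPswe. Both sums were higher in each APPswe library than in each Ctrl library, with or without Ctrl 2. Secreted antagonists alone summed to 164, 84.4 and 163 FPKM in Ctrl and 238, 233 and 235 in APPswe. Within that sum Dkk3 was at 89.3 ± 17.1 FPKM in Ctrl and 94.7 ± 1.37 in APPswe, and Sfrp1, Sfrp2 and Notum were its genes called higher without Ctrl 2. The Frizzled and LRP sum was 65.2 ± 11.1 FPKM in Ctrl and 85.3 ± 4.62 in APPswe, and the alternative receptor sum 31.7 ± 2.28 and 53.7 ± 2.45 (SD, n = 3). Both were higher in every APPswe library than in every Ctrl library, and both are part of the agonist sum. The ligand sum was 18.4, 9.53 and 18.9 FPKM in Ctrl and 18.5, 19.5 and 19.6 in APPswe, so that the groups overlap with or without Ctrl 2.

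**Figure D4:**
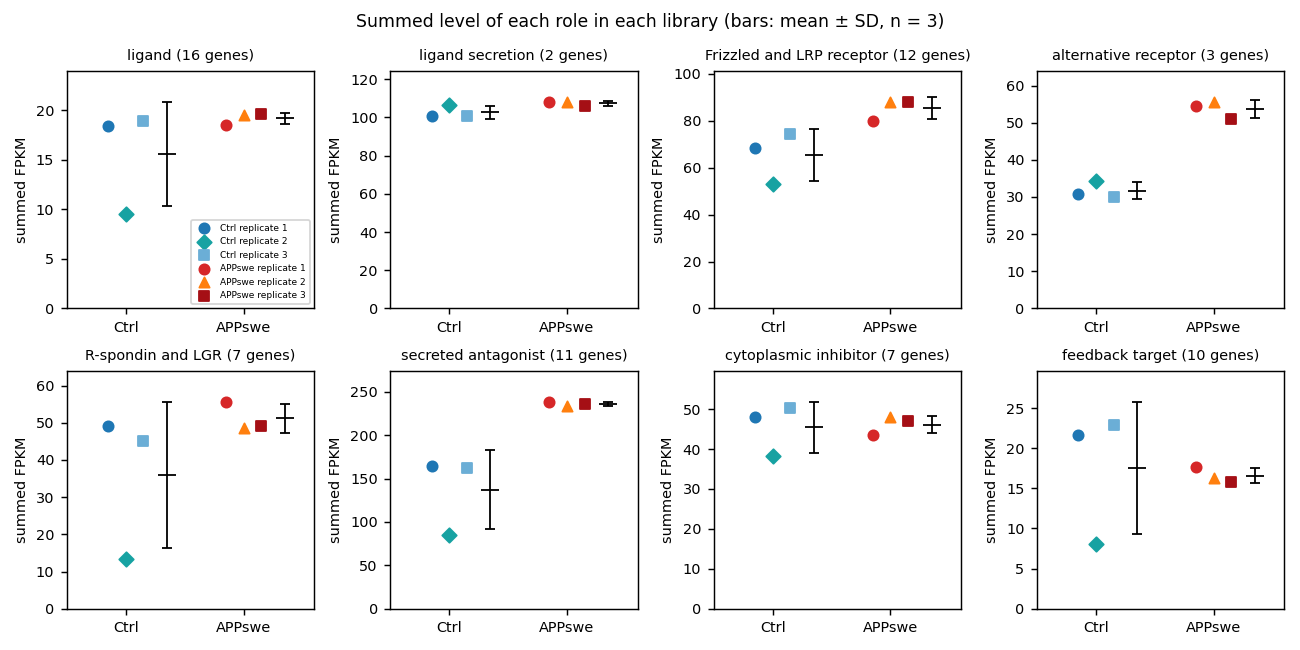
Summed FPKM of 8 roles in each of the 6 libraries (points), with the group mean ± SD (n = 3) beside them on axes that start at 0. Secreted antagonists run from 84.4 in Ctrl 2 to 238 in APPswe 1, and alternative receptors are at 31.7 ± 2.28 in Ctrl and 53.7 ± 2.45 in APPswe.

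Feedback targets are read as reporters of beta-catenin activity in many tissues. Of 10, 7 were tested, 2 were called higher (Nkd1 and Notum; 28.6%, beside 3.74% of all genes tested, and 4.87% without Ctrl 2) and none was called lower by edgeR (beside 3.60%, and 6.58% without Ctrl 2), in either fit; at an unadjusted p of at most 0.05, 0 were lower with all 6 libraries and 2 without Ctrl 2, and DESeq2 called 0 lower. The median log2 fold change was 0.10, and 0.0003 without Ctrl 2. Axin2, the most widely used target, was at 2.71, 2.30 and 2.71 CPM in Ctrl and 2.86, 2.67 and 2.58 in APPswe (log2 fold change 0.07 ± 0.18 SE, adjusted p = 0.812; without Ctrl 2, adjusted p = 0.999). The groups overlap for Axin2 in both fits.

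Nkd2, the most abundant target by FPKM (13.6 ± 7.18 in Ctrl and 10.6 ± 0.642 in APPswe), was at 65.9, 20.5 and 71.3 CPM in Ctrl and 40.8, 38.6 and 36.7 in APPswe; it fell without Ctrl 2 (-0.82, adjusted p = 9.05e-06) and did not pass with it (-0.44, adjusted p = 0.480). So the related genes Nkd1 and Nkd2 differed in opposite directions without Ctrl 2. Tcf7, a TCF/LEF factor and target, was at 2.77, 0.618 and 2.37 CPM in Ctrl and 2.30, 1.67 and 2.19 in APPswe (0.10, adjusted p = 0.906; without Ctrl 2, -0.32, adjusted p = 0.241). Znrf3, a ubiquitin ligase that removes Frizzled receptors, was at 6.06, 7.64 and 6.60 CPM in Ctrl and 7.79, 6.57 and 7.64 in APPswe (0.12, adjusted p = 0.627; without Ctrl 2, 0.21, adjusted p = 0.215). The summed target level was 21.65, 8.03 and 22.9 FPKM in Ctrl and 17.6, 16.35 and 15.8 in APPswe. The groups overlap with Ctrl 2, and without it both Ctrl values lie above all 3 APPswe values. Nkd2 made up 70.9% of this sum, so its direction is largely that of Nkd2. Nkd1, the second gene by FPKM, was at 0.76, 0.38 and 0.73 FPKM in Ctrl and 2.07, 1.98 and 1.83 in APPswe. Without Ctrl 2, 3 of 7 targets tested were lower without overlap (42.9%, beside 33.3% of all genes tested) and 2 higher (28.6%, beside 32.9%).

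Of the 18 Wnt genes not tested, 10 had at most 3 counts in every library and Sfrp5 had none in any; the largest count was 14, for Rnf43. They include the targets Rnf43, Lef1 (at most 8 counts) and Dkk1 (at most 3), and the ligands Wnt1, Wnt3, Wnt6, Wnt7a, Wnt7b, Wnt8b, Wnt10a and Wnt2b. Sost reached at most 3 counts, which is at the floor. Without the filter on low counts, 64 of the 65 were tested and Wnt6, a ligand, was called higher as well, making 9; its counts were 1, 2 and 1 in Ctrl and 4, 9 and 9 in APPswe. Wnt7b also did not overlap, with 5, 1 and 4 counts in Ctrl and 8, 8 and 7 in APPswe.

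Other genes of the pathway were read from a separate list of 87, of which 84 were tested: 6 were called higher (7.14%, beside 3.74% of all genes tested) and 2 lower (2.38%, beside 3.60%). By adjusted p, 13 rose (15.5%, beside 10.5%) and 9 fell (10.7%, beside 12.0%). Without Ctrl 2, 8 of 85 were called higher (9.41%, beside 4.87%) and 6 lower (7.06%, beside 6.58%), while 30 rose (35.3%, beside 23.3%) and 21 fell (24.7%, beside 25.0%). The shares that fell were thus near those of all genes. The 6 called higher were Tle2 (log2 fold change 1.58, adjusted p = 0.00858; without Ctrl 2, 1.34), a Groucho-type co-repressor; Cthrc1 (2.05, adjusted p = 0.00192; without it, 2.34), a secreted Wnt cofactor; Gpc3 (1.83, adjusted p = 0.00958; without it, 1.87), a glypican; Draxin (2.45, adjusted p = 0.0225; without it, 1.98), a secreted axon guidance protein; Prickle1 (1.93, adjusted p = 0.00858; without it, 1.62), of planar polarity; and Caprin2 (1.03, adjusted p = 0.0146), an RNA-binding protein, whose value was below the fold threshold without Ctrl 2 (0.87). Calls were lost for Gpc3 without APPswe 3 (adjusted p = 0.0576), and for Draxin without Ctrl 1 or any APPswe library (up to 0.0901) and Caprin2 without any APPswe library (up to 0.0739). Adgra2, Mest and Sox9 were called higher without Ctrl 2 and not with all 6 libraries, where Mest was at 2.26 (adjusted p = 0.0501); likewise Celsr2, Camk2b, Frzb and Sp5, the last not tested with all 6, were called lower without it. Cthrc1 was at 9.12, 16.9 and 10.9 CPM in Ctrl and 49.1, 52.0 and 51.7 in APPswe. By class, 2 of 31 genes of the beta-catenin core (6.45%), 3 of 18 modulators of ligand or receptor (16.7%) and 1 of 19 of the planar polarity and calcium branch (5.26%) were called higher, beside 3.74% of all genes tested, and 1, 5 and 1 were without Ctrl 2, beside 4.87%. In these 3 classes no gene was called lower with all 6 libraries (beside 3.60%), and 0, 1 and 2 were without Ctrl 2 (beside 6.58%).

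The class of further targets had 16 genes tested, of which Ccnd1 and Tnfrsf11b were called lower (12.5%, beside 3.60% of all genes tested) and none higher (beside 3.74%). Without Ctrl 2, 3 of 17 were called lower (17.6%, beside 6.58%) and 1 higher (5.88%, beside 4.87%). Among those called lower was Sp5, with 32, 0 and 36 counts in Ctrl and 0, 0 and 2 in APPswe (log2 fold change -5.45, adjusted p = 2.01e-05). Sp5 was not tested with all 6 libraries. Ccnd1, the cyclin D1 gene, was at 990, 964 and 1072 CPM in Ctrl and 348, 367 and 362 in APPswe, and was lower in all 3 APPswe libraries (log2 fold change -1.49 ± 0.08 SE, adjusted p = 0.000296; without Ctrl 2, -1.52, adjusted p = 1.73e-08). Tnfrsf11b, which encodes osteoprotegerin, an inhibitor of osteoclast formation, was at 98.9 and 101 CPM in Ctrl 1 and 3, 15.5 in Ctrl 2 and 15.3, 15.8 and 14.6 in APPswe. Ctrl 2 thus lay at the APPswe level for Tnfrsf11b (-2.24, adjusted p = 0.0471; without Ctrl 2, -2.71, adjusted p = 2.11e-09), and leaving out any of the other 5 libraries ended the call.

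Ctnnb1, the beta-catenin gene, was at 660, 552 and 676 CPM in Ctrl and 625, 637 and 611 in APPswe (-0.01, adjusted p = 0.942; without Ctrl 2, -0.095, adjusted p = 0.183). Myc was at 44.1, 65.0 and 43.7 CPM in Ctrl and 68.3, 64.5 and 60.6 in APPswe (0.34, adjusted p = 0.184; without Ctrl 2, 0.56, adjusted p = 0.000165). Atp6ap2, a V-ATPase-associated protein that also binds Wnt receptors, was at 281, 265 and 257 CPM in Ctrl and 216, 191 and 180 in APPswe (-0.45 ± 0.09 SE, adjusted p = 0.0164; without Ctrl 2, -0.46, adjusted p = 0.000964), lower in all 3 APPswe libraries but short of the fold threshold; it missed the threshold on p without Ctrl 1, APPswe 2 or APPswe 3 (up to 0.0887).

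Library names come in 2 styles, with a hyphen (Ctrl 1, Ctrl 2 and APPswe 1) or a low line (Ctrl 3, APPswe 2 and APPswe 3). After the group name, Ctrl 2 carries the letter S and every other library the letter L. The labels do not say what these letters stand for. Within the hyphen style the log2 ratio of APPswe to Ctrl was 3.04 for Sfrp1, 3.14 for Ror1, 1.39 for Lgr4, 1.29 for Dact1, 2.14 for Nkd1, 1.86 for Notum, 1.38 for Wnt4 and 1.42 for Fzd4. Within the low-line style it was 2.20, 2.37, 1.28, 1.58, 1.32, 1.02, 1.08 and 1.22 in the same order. All 8 were higher in APPswe within each style, but this was fixed beforehand, since their Ctrl and APPswe values do not overlap. The direction within a style therefore says nothing about the name style. With the name style as a covariate over all 6 libraries, 7 of the 8 were called, and the Sfrp1 log2 fold change of 2.62 missed the threshold (adjusted p = 0.0761).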

How the data were processed

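Total RNA of sorted cells was sequenced on the DNBseq platform; the authors' notes name the GRCm38 build, and the aligner and counting tool are not given in the sources used here. The deposited tables hold raw read counts per gene and library, and the authors' FPKM (fragment counts scaled by transcript length and mapped depth) rounded to 2 decimals, with some values left blank; every blank had a count of 0 and was read here as 0. The deposited expression table also holds the authors' log2 fold change and p-value of their own comparison of genotypes; neither was used.

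Libraries were grouped by genotype, 3 against 3. Counts were tested across all genes with edgeR 4.0.16 in R 4.3.3 (quasi-likelihood, TMM, filterByExpr, no covariates), with Benjamini-Hochberg adjustment over the 13484 genes tested; calls required an adjusted p no greater than 0.05 and a log2 fold change at or beyond 1 in either direction, as the study's methods do. SE is the absolute log2 fold change over the square root of F. CPM are TMM-scaled and compare a gene across libraries; FPKM compare levels between genes. Totals of 17263757 to 18398392 counts set the precision, and floors cover counting error only. Alternatives used DESeq2 1.42.0, limma 3.58.1 on log2 FPKM, other scalings and filters, replicate and name-style terms, and each library left out; the edgeR code was tested on simulated data. Genes named are those past an adjusted p of 0.05 with all libraries or without Ctrl 2, the 2 most abundant of each role, the feedback targets, called pathway genes and Ctnnb1, Ccnd1, Myc and Atp6ap2; Wnt9a, Dkk2, the genes not tested and those of the pathway list called without Ctrl 2 and not with all libraries were named after their values were seen. Xist is not in the tables and was not analysed here. Promoter sequences are from RefSeq (GRCm38.p6). The Wnt genes and all lists were chosen with earlier results of these data known.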

Additional observations from a re-analysis of the deposited data

How the results depend on the processing

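Of 861 log2 fold changes recomputed for 48 named genes, 712 kept direction and side of the threshold, 83 lost it, 42 gained it and 24 changed sign. The cause of these changes was not tested. Wnt genes called higher were 8 with all 6 libraries, 1 with a test against the fold threshold (glmTreat), 5 with APPswe 2 and 3 summed to 1 sample, 5 with limma on log2(FPKM + 1) and 4 to 9 with each library left out. Over all genes tested, the same fits called 504, 147, 296, 316 and 281 to 670 higher, and the replicate block 384. With the replicate block 6 were called higher, and Sfrp1 (adjusted p = 0.0649) and Notum missed the threshold; the replicate numbers did not pair, since deviations of same-number libraries correlated across genes at 0.07, -0.04 and 0.16. Called lower were 0 with all 6 libraries, 0 to 3 with each library left out and 3 with APPswe 2 and 3 summed and no Ctrl 2, an alternative chosen after seeing the data. Over all genes tested, these fits called 486, 230 to 905 and 924 lower. By adjusted p, 14 rose with all 6 libraries, 7 with APPswe 2 and 3 summed and 6 to 20 with each library left out. By adjusted p, 0 fell with all 6 libraries, 2 with DESeq2, 1 each with at least 10 counts in every library, the replicate block, the name style as covariate, and limma at either FPKM pseudocount (1 and 0.1), 0 to 10 with each library left out and 8 with the alternative chosen after seeing the data. Other pathway genes called were 8, 2 with glmTreat, 5 with APPswe 2 and 3 summed, 4 to 14 with each library left out and 14 with the alternative chosen after seeing the data.

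Log2 fold changes that changed sign were near 0 in the full fit or turned on Ctrl 2. With each library left out the ranges were -0.14 to 0.10 for Dkk3, -0.55 to 0.37 for Lgr5, -0.42 to 0.41 for Rspo2, -0.28 to 0.73 for Sfrp4, -0.32 to 0.45 for Tcf7 and -0.095 to 0.038 for Ctnnb1. With APPswe 2 and 3 summed and no Ctrl 2 the values were -0.14 for Dkk3, -0.40 for Rspo2 and -0.26 for Sfrp4, and the Tcf7 log2 fold change was -0.31. The Dkk3 log2 fold change was -0.026 with the name style as covariate, and Lgr5 at 0.089 with the replicate block and 0.011 and 0.16 with limma on log2(FPKM + 1) and log2(FPKM + 0.1). Without TMM, Wls was at 0.011 and Ctnnb1 at 0.060; with limma at both pseudocounts, Wls was at 0.013 and 0.013 and Ctnnb1 at 0.066 and 0.067. Over all genes, 504 were called higher and 486 lower; the split was 316 and 185 with limma on log2(FPKM + 1), 556 and 313 with log2(FPKM + 0.1), and 670 and 905 without Ctrl 2. The filter on low counts left out 18 Wnt genes, whose counts reached at most 14; with no filter, 64 were tested and 9 called higher, Wnt6 among them.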
